A study of Rattus norvegicus with 10 samples.

Results

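The 10 genes described here are the core of the mammalian circadian clock and its most direct outputs, namely *Arntl*, *Clock*, *Per1*, *Per2*, *Per3*, *Cry1*, *Cry2*, *Nr1d1*, *Nr1d2* and *Dbp*. They were chosen by gene symbol from a gene expression table of 32545 genes, in which each symbol occurs once. All 10 passed the filter on low values that left 17631 genes for testing. Their RNA was measured by RNA-seq in the renal cortex of PCK rats (PCK/CrljCrl-Pkhd1pck/Crl), 5 of each sex, with 1 library per rat. PCK rats carry a mutation of *Pkhd1*, the gene of fibrocystin, and are a model of autosomal recessive polycystic kidney disease. All 10 rats carry it, and no rat without the mutation was analysed here. The study's methods give an age of 10 to 12 weeks, whereas the description of the series gives 12 to 14 weeks. The rats were littermates from 2 litters with different parents, had free access to food, and were kept under 12 hours of light and 12 hours of dark. Tissue was taken within 2 weeks, between 11 in the morning and 3 in the afternoon. The hour for each rat and its litter were not used here, and their part in the values below was not tested.

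The clock is a feedback loop that runs in most cells, including those of the kidney. The proteins of *Arntl* (BMAL1) and *Clock* form a dimer that binds E-box sequences and turns on the *Per*, *Cry*, *Nr1d* and *Dbp* genes. PER and CRY proteins return to the nucleus and block the dimer, while the receptors REV-ERBα and REV-ERBβ (*Nr1d1* and *Nr1d2*) repress *Arntl* through RRE sequences, which they contest with ROR receptors. DBP activates genes through D-box sequences. *Arntl* RNA therefore peaks at another time of day than *Dbp*, *Nr1d1*, *Nr1d2* and *Per3* RNA, and in the kidney the loop is known for its role in the daily rhythm of salt and water excretion.

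The promoters of these genes were searched for such sequences. RefSeq promoter sequence came from the rat reference assembly GRCr8, a later build than that of the expression table. It was matched by gene identifier, or failing that by symbol or synonym, for 9 of the 10 genes. *Arntl* is listed there as *Bmal1*. The 11 windows of 250 bases that precede an annotated start were searched on both strands for the E-box CACGTG, the E′-box CACGTT, the D-boxes TTATGTAA and TTACGTAA, the cAMP response element TGACGTCA and the RRE. Matches lay in 5 windows of 4 genes. The share of all rat windows with any of these matches was not counted, so this count has no background beside it. All windows of *Arntl*, *Per2* and *Nr1d1* are shown, because each of these genes has a window with an RRE, a D-box or an E-box. Proteins of this gene set are known to bind these letters. The first *Nr1d1* window holds only an E′-box, as does that of *Cry2*, which is not shown. Capitals mark the match, each window is written on the strand of its gene, and its last base is the base before the start.
Arntl, chr1:176766078-176766327, plus strand: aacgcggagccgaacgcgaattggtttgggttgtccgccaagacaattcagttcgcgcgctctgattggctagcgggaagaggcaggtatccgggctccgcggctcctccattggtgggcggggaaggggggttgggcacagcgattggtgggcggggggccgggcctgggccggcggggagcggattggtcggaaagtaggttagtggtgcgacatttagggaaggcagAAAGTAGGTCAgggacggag
Per2, chr9:99496994-99497243, minus strand: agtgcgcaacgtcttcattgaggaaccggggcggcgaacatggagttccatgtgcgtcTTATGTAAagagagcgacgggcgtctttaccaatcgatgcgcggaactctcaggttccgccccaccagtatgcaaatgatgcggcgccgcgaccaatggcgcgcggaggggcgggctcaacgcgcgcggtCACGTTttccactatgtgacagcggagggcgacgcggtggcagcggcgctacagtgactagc
Nr1d1, first window, chr10:84231813-84232062, minus strand: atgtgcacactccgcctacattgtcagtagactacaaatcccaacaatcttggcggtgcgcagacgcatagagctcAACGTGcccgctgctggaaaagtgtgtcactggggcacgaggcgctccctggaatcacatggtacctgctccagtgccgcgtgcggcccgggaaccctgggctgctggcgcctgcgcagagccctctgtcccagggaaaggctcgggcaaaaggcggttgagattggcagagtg
Nr1d1, second window, chr10:84229455-84229704, minus strand: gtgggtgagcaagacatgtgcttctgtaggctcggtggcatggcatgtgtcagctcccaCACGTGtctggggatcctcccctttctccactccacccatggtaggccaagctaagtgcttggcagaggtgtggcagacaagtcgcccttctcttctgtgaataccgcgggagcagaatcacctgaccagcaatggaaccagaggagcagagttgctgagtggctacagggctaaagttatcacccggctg
The RRE of *Arntl* began 20 bases before the start, and 0.317% of 33469 rat windows of the same length held an RRE. *Per2* had an E′-box beginning 62 bases before the start and a D-box 192 bases before it, which 4.07% and 0.828% of all windows held. The first *Nr1d1* window had the E′-box on the other strand, 174 bases before the start, and the second had an E-box 191 bases before it. E-boxes were in 5.59% of all windows. *Cry2* also had an E′-box on the other strand, 212 bases before its start. The windows of *Dbp*, *Nr1d2*, *Clock*, *Per1* and *Per3* held none of these letters. A match describes the reference sequence and is not a measured binding site.

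Males had 13912569 to 20285911 reads on genes and females 14963924 to 19556707, with medians of 14387669 and 15896262. The expression values are FPKM, the reads on a gene scaled to its length and to a size factor of the library. That factor does not follow the reads on genes exactly. Between 62 reads (*Cry1*) and 3628 reads (*Dbp*) per library lay behind each value of the 10 genes. The cortex markers *Slc34a1* (824 to 1660 FPKM), *Lrp2* (126 to 250 FPKM) and *Umod* (877 to 1500 FPKM) were high in every library. *Slc12a3* of the distal convoluted tubule was also present throughout (78.5 to 182 FPKM), while *Pvalb* of the same segment was listed at 0 in every library. Of the medullary markers *Crhbp* was listed at 0, but *Cldn4* (11.1 to 43.4 FPKM), *Slc39a8* (10.7 to 23.3 FPKM) and *Aqp4* (2.13 to 5.66 FPKM) were present, and the 2 rows of *Slc14a2* were at 0.131 FPKM or below apart from 2.24 FPKM in female 2, so medullary RNA cannot be called absent. Female 2 stood apart with a mitochondrial share of 26.8% of reads, against 14.3% to 19.1% in the other 9 libraries, and without it limma called 550 genes between the sexes in place of 424. Tissue RNA mixes many cell types, so fewer cells of a type and less RNA per cell cannot be told apart. The p-values below set differences and correlations against the spread between these rats. The tests treat the rats as independent, although they are littermates from 2 litters.

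*Dbp* had the highest level of the 10 genes, at 70.3 ± 32.0 FPKM (SD, n = 10), followed by *Nr1d1* at 27.1 and *Nr1d2* at 25.8 FPKM. Below them came *Clock* (10.5 FPKM), *Per1* (9.98 FPKM), *Cry2* (9.69 FPKM), *Per2* (7.48 FPKM), *Arntl* (5.90 FPKM) and *Per3* (5.72 FPKM). *Cry1* was the lowest at 2.49 ± 0.517 FPKM (SD, n = 10). Genes next to each other in this order were compared within each rat by an exact sign-flip permutation test, two-sided, with Benjamini-Hochberg adjustment over the 9 pairs. In 4 pairs the levels differed. *Dbp* was above *Nr1d1* in 10 of 10 rats, *Nr1d2* above *Clock* in 10 of 10 and *Cry2* above *Per2* in 10 of 10 (exact adjusted p = 0.00585 for each). *Per3* was above *Cry1* in 9 of 10 (exact adjusted p = 0.0088). *Nr1d1* and *Nr1d2* did not differ beyond the spread between rats (exact adjusted p = 0.922), and neither did *Clock* and *Per1* (0.726), *Per1* and *Cry2* (0.963), *Per2* and *Arntl* (0.394) or *Arntl* and *Per3* (0.963).

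*Arntl* (ENSRNOG00000014448) lies on chromosome 1 of the build Rnor_6.0, from 178039063 to 178137465 on the plus strand. It was at 1.48, 8.33, 4.22, 12.5 and 4.51 FPKM in males 1 to 5 and at 4.99, 4.32, 4.21, 6.77 and 7.61 FPKM in females 1 to 5. Male 1 was the lowest and male 4 the highest of all rats, so that the male range of 8.46-fold enclosed the female range of 1.81-fold. *Clock* (ENSRNOG00000002175, chromosome 14, 34446616 to 34502218) was at 8.45, 12.5, 11.5, 13.0 and 7.60 FPKM in the males and at 10.1, 9.69, 10.2, 11.8 and 10.6 FPKM in the females. Its highest value was again in male 4, and its lowest values were in males 5 and 1.

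Among the repressors that the dimer turns on, the 3 *Per* genes were highest in male 1. *Per1* (ENSRNOG00000007387), a period gene that also answers to cAMP and glucocorticoids, is on chromosome 10 from 55687050 to 55695994. Its level was 16.9, 10.1, 9.65, 7.56 and 7.60 FPKM in the males and 10.5, 11.2, 14.2, 6.03 and 5.96 FPKM in the females, so females 4 and 5 were the lowest. *Per2* (ENSRNOG00000020254, chromosome 9, 98555169 to 98597359) was at 13.0, 6.67, 8.31, 5.10 and 6.60 FPKM in the males and at 8.36, 6.54, 6.74, 7.33 and 6.19 FPKM in the females. Apart from male 1, its levels lay between 5.10 and 8.36 FPKM. *Per3* (ENSRNOG00000018413), the third period gene, is on chromosome 5 from 168086998 to 168123395. It was at 9.45, 4.88, 7.18, 2.01 and 5.89 FPKM in the males and at 5.74, 6.42, 5.81, 4.91 and 4.90 FPKM in the females. Its lowest value was in male 4, the rat with the highest *Arntl*.

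The cryptochromes, which block the dimer together with the PER proteins, differed from each other in pattern. *Cry1* (ENSRNOG00000006622, chromosome 7, 24534615 to 24634097) was at 3.37, 2.27, 1.47, 3.01 and 2.38 FPKM in the males and at 2.77, 2.55, 2.09, 2.61 and 2.41 FPKM in the females. Males 1 and 4, which stood at opposite ends for *Arntl*, both had high *Cry1*. *Cry2* (ENSRNOG00000007478, chromosome 3, 81314149 to 81344110) was at 14.1, 8.58, 11.7, 7.41 and 9.31 FPKM in the males and at 9.52, 6.62, 9.33, 10.1 and 10.3 FPKM in the females. Male 1 was the highest, as for the *Per* genes, and female 2 the lowest.

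The REV-ERB receptors close the second loop. *Nr1d1* (ENSRNOG00000009329, chromosome 10, 86683875 to 86690815) was at 29.5, 17.7, 29.6, 15.4 and 19.0 FPKM in the males and at 22.3, 38.3, 38.7, 33.8 and 27.0 FPKM in the females. Its 3 highest values were in females, although the ranges overlapped. *Nr1d1* overlaps the end of *Thra* on the other strand. The strand setting of the read counting is not given in the sources used here, so its values are uncertain to that extent. *Nr1d2* (ENSRNOG00000046912, chromosome 15, 8730871 to 8757165) was at 33.8, 22.8, 25.7, 13.9 and 26.1 FPKM in the males. In the females it was at 25.5, 26.8, 28.8, 29.1 and 25.5 FPKM, a range of 1.14-fold that was enclosed by the male range of 2.43-fold.

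*Dbp* (ENSRNOG00000021027), the output factor, is on chromosome 1 from 101687855 to 101692846. It was at 138, 41.3, 90.3, 20.1 and 69.7 FPKM in the males and at 60.6, 62.8, 92.5, 71.6 and 56.4 FPKM in the females. Male 1 was the highest and male 4 the lowest, the reverse of *Arntl*. The ratio of *Dbp* to *Arntl* FPKM was 93.2, 4.96, 21.4, 1.61 and 15.4 in males 1 to 5 and 12.1, 14.5, 22.0, 10.6 and 7.42 in females 1 to 5. The female ratios thus lay inside a range set by males 1 and 4.

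**Figure D1:**
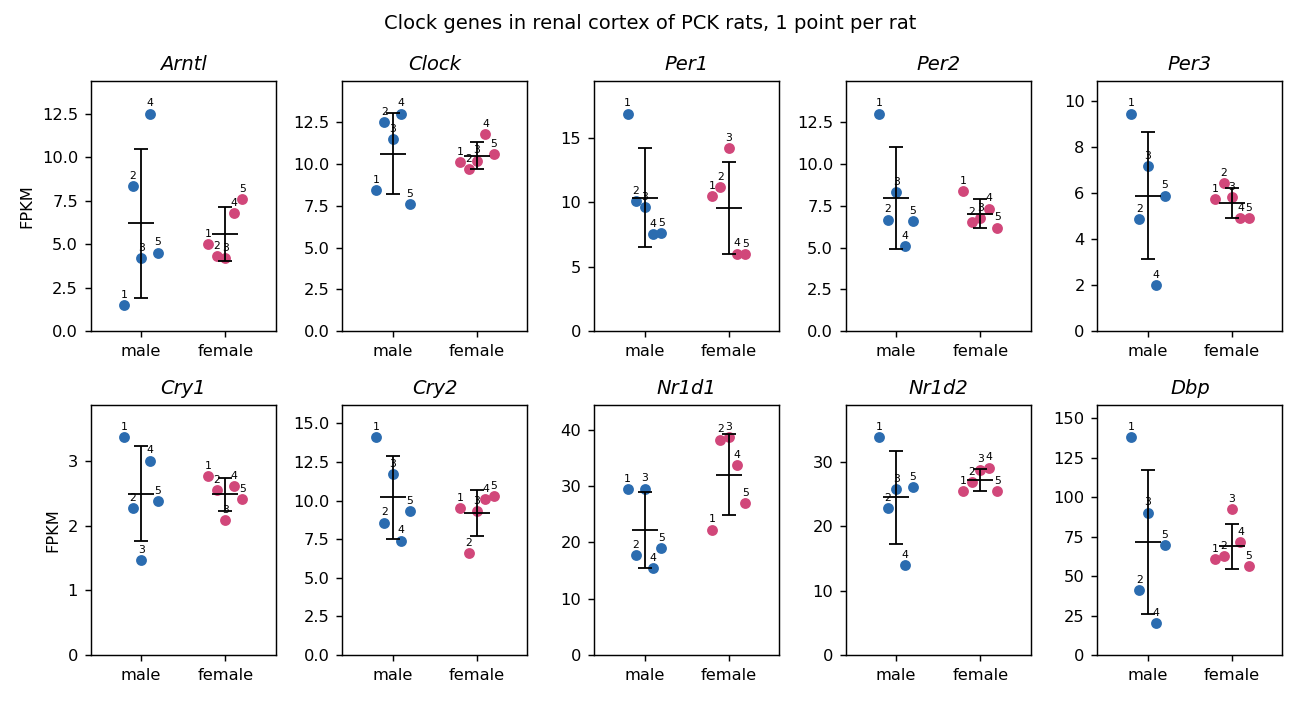
FPKM (vertical axis, from 0) of the 10 clock genes in 5 male (blue) and 5 female (pink) rats, 1 panel per gene and 1 point per rat, with the number of the rat above it; the long bar is the mean and the whiskers are ± SD. Male 1 is at the top for *Dbp* (138 FPKM) and the bottom for *Arntl* (1.48 FPKM), male 4 is the reverse, and the sexes overlap in every panel.

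The comparison of males and females asked whether the clock genes share in the sex difference of the renal transcriptome. No clock gene passed the test between the sexes at an adjusted p of at most 0.05 in limma, and none of the 10 had ranges that did not overlap, as 5.1% of all genes did. Over all genes, limma called 424 of 17631, or 2.4%, with 223 higher and 201 lower in females, and 1.32% also had a log2 fold change of at least 1. An exact permutation p of at most 0.05 was reached by 14.8% of all genes and by 0 of the 10 clock genes. At an unadjusted limma p under 0.05 there was 1 clock gene, *Nr1d1*, against 15.7% of all genes. The median log2 fold change, female over male, was 0.06 for the clock genes and -0.01 for all genes, and 7 of the 10 fold changes were above 0. By mean FPKM only 2 of the 10, *Nr1d1* and *Nr1d2*, were higher in females, since 5 of those 7 genes had the higher mean FPKM in males.

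*Nr1d1* averaged 22.2 FPKM in males (SD 6.78, n = 5) against 32.0 FPKM in females (SD 7.18, n = 5). Its log2 fold change was 0.55 (95% interval 0.07 to 1.02), with a limma adjusted p of 0.248 and an exact permutation p of 0.0556, where 5 against 5 rats can reach 0.00794. Without male 1, male 3 or female 1 the exact permutation p was 0.0476, without any other single rat it was 0.0556 to 0.119, and without males 1 and 4 it was 0.107. The difference was the largest of the 10 and did not pass the threshold after adjustment over all genes. For *Clock*, at 10.6 ± 2.45 and 10.5 ± 0.796 FPKM (SD, n = 5 each), the interval was narrow, from -0.32 to 0.34 around a log2 fold change of 0.01. For *Arntl* it was wide, from -0.89 to 1.14 around 0.12, so that a difference of up to 2.20-fold toward females lay within it. *Dbp* had a log2 fold change of 0.19 (-0.74 to 1.13) and *Per3* one of 0.07 (-0.65 to 0.80). For *Arntl*, *Dbp* and *Per3* the mean FPKM was higher in males (6.22 against 5.58, 71.9 against 68.8 and 5.88 against 5.56 FPKM) while the mean log2 value was higher in females, and the same held for *Clock* and for *Cry1* (2.50 against 2.49 FPKM), so no direction can be given for these 5 genes. The other log2 fold changes were -0.13 for *Per1*, -0.11 for *Per2*, 0.04 for *Cry1*, -0.13 for *Cry2* and 0.20 for *Nr1d2*. The limma adjusted p of the 10 genes ran from 0.248 to 0.986. Leaving out single rats turned the sign for *Arntl* (male 1), *Dbp* (male 4), *Per3* (male 4), *Per2* (male 1), *Per1* (male 1, female 4 or female 5), *Clock* (male 1, male 5 or female 4) and *Cry1* (male 3 or female 1).

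**Figure D2:**
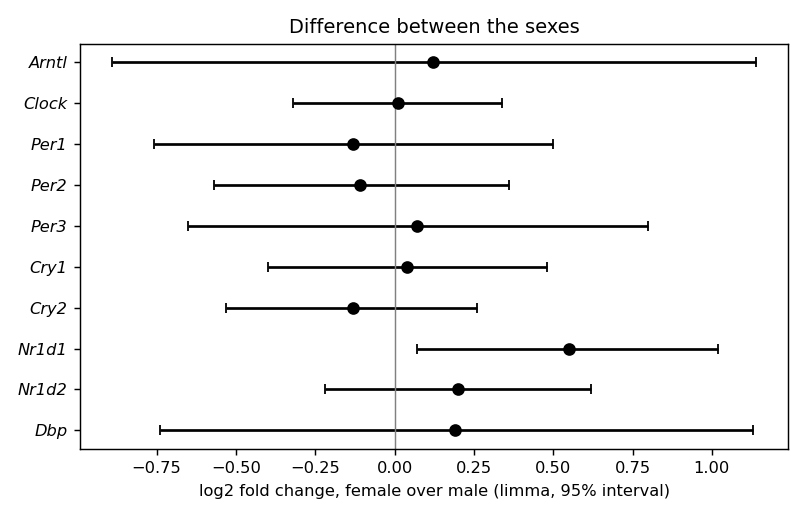
Log2 fold change between female and male rats (horizontal axis) of each clock gene (vertical axis), from limma on log2(FPKM + 0.1); points are estimates and bars are 95% intervals, 5 rats per sex. The interval of *Nr1d1* (0.07 to 1.02) lies above 0 before adjustment, and those of the other genes cross 0.

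Rats of the same sex differed far more in some clock genes than in most genes. The spread was taken as the SD of log2(FPKM + 0.1) around the mean of each sex and ranked among the 13363 genes that averaged 1 FPKM or more. The SD was 0.85 for *Arntl*, 0.78 for *Dbp* and 0.60 for *Per3*, wider than in 96.1%, 95.5% and 92.5% of genes, where the median gene had 0.22. These 3 of the 10 lay among the widest 10%, which began at an SD of 0.52. *Per1* followed just outside at 0.52 (89.7%). *Nr1d1* (0.39), *Per2* (0.37), *Nr1d2* (0.34), *Cry1* (0.33) and *Cry2* (0.31) lay further in, and *Clock* had the smallest spread of the 10 at 0.26 (59.9%).

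In most of the 10 genes the SD was larger among the males than among the females. The difference did not pass a test, but that test had little room to pass. The SD of *Arntl* was 1.14 in males and 0.38 in females, that of *Dbp* 1.07 and 0.28, that of *Per3* 0.83 and 0.17, and that of *Nr1d2* 0.47 and 0.09. In 9 of the 10 genes males had the larger SD, against 36.7% of all genes, with *Per1* (0.47 and 0.56) as the exception. The difference in spread between the sexes did not pass an exact permutation test for any of the 10 (exact p from 0.0873 for *Dbp* to 0.675 for *Nr1d1*). This test used the distance of each rat from the median of its sex. In a sex with an odd number of rats, 1 such distance is 0 by construction. With 5 against 5 rats p could therefore barely fall below 0.05. Across all genes 0.449% reached an exact p of at most 0.05. Leaving out 1 male in turn (male 1, 2, 3, 4 or 5) gave 1 to 4 clock genes at an exact p of at most 0.05, where 1.46% to 2.27% of all genes reached it, and leaving out 1 female gave 0, where 3.22% to 8.13% did. Without both males 1 and 4 too few males were left for any gene to reach 0.05, so that set decides nothing. How low p can go also differs between leaving out a male and leaving out a female, so their counts cannot be compared. Leaving out males 1 and 4, the rats at the ends of *Arntl*, lowers such an SD by construction. Without both, the SD was 0.44 for *Arntl*, 0.40 for *Dbp*, 0.21 for *Per3* and 0.10 for *Nr1d2*, and 0 of the 10 genes lay among the widest 10%. *Per1* (0.47), *Arntl* and *Dbp* were then still wider than 86.3%, 84.0% and 81.2% of genes, and *Nr1d1* (0.36) and *Clock* (0.24) had moved little. Without male 4 alone, 1 of the 10 genes lay among the widest 10%.

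**Figure D3:**
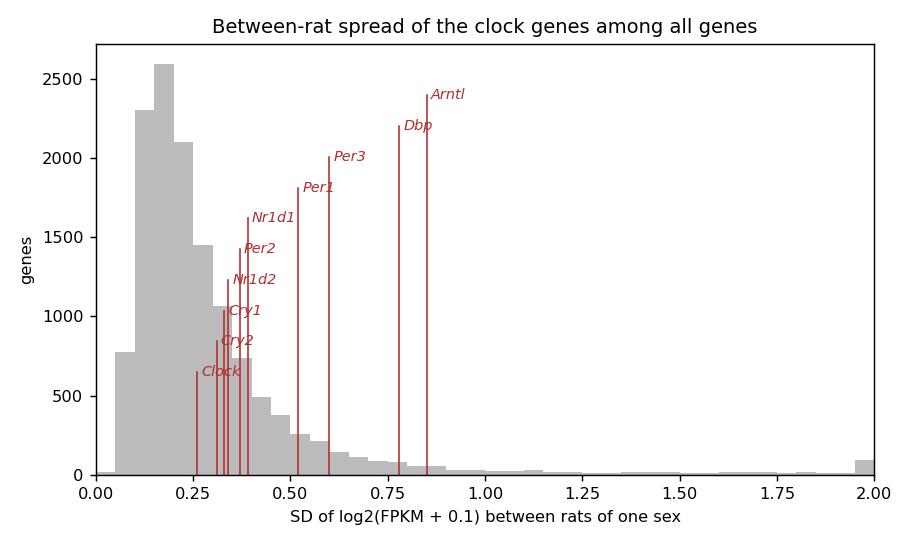
Histogram of the between-rat SD of log2(FPKM + 0.1) within a sex (horizontal axis, log2 units) over 13363 genes (vertical axis, number of genes per bin), with 1 red line per clock gene whose height only spaces the names; the last bin also holds the 84 genes beyond an SD of 2. *Arntl* (0.85), *Dbp* (0.78) and *Per3* (0.60) lie in the right tail and *Clock* (0.26) near the median of 0.22.

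Between rats, the level of *Arntl* moved opposite to that of 5 clock genes and with that of *Clock*. The log2 level of *Arntl* was correlated with that of each of the other 9 genes over the 10 rats, with permutation tests of 100000 pairings and Benjamini-Hochberg adjustment over the 9 pairs. In 6 of the 9 pairs the adjusted p was at most 0.05. As a description beside all genes, with the mean of each sex taken out, 6 of the 9 genes had an r of -0.7 or below with *Arntl* and 1 had 0.7 or above, where 2.01% and 2.17% of 13362 genes did. *Dbp* (Pearson r = -0.89, permutation p = 0.00159, adjusted 0.00921, Spearman rho = -0.92, p = 0.00072, adjusted 0.00324) and *Per3* (r = -0.88, permutation p = 0.00307, adjusted 0.00921, rho = -0.93, p = 0.00032, adjusted 0.00288) were low where *Arntl* was high. *Per2* had the same r (-0.88, permutation p = 0.00287, adjusted 0.00921) but a weaker rho (-0.61, p = 0.0668, adjusted 0.0859). *Nr1d2* had r = -0.79 (permutation p = 0.0181, adjusted 0.0271, rho = -0.76, p = 0.0146, adjusted 0.0437) and *Per1* r = -0.73 (permutation p = 0.0141, adjusted 0.0271, rho = -0.72, p = 0.023, adjusted 0.0519). *Clock*, the partner of *Arntl*, was the 1 gene of the 6 that moved with it (r = 0.72, permutation p = 0.0173, adjusted 0.0271, rho = 0.68, p = 0.0338, adjusted 0.0524).

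The other 3 genes did not pass. *Cry2* had r = -0.62 (permutation p = 0.0578, adjusted 0.0743, rho = -0.43, p = 0.219) and *Cry1* had r = -0.10 (permutation p = 0.778, rho = 0.15, p = 0.68). *Nr1d1* had r = -0.51 (permutation p = 0.129, adjusted 0.145, rho = -0.68, p = 0.0349, adjusted 0.0524). The other pairs were not tested. As a description, r of *Clock* with the 8 genes other than *Arntl* ran from -0.63 to -0.20, and from -0.31 to 0.25 without males 1 and 4. Among these 8 genes 23 of 28 pairs had an r above 0 (median 0.56), and 17 of 28 without males 1 and 4 (median 0.12), where *Per3* and *Nr1d2* fell from 0.92 to 0.13. After the mean of each sex was taken out, r with *Arntl* for *Nr1d1* was -0.71 (permutation adjusted p = 0.0194) and 7 of the 9 pairs passed.

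How far these relations rest on males 1 and 4, the rats farthest from the median of *Arntl*, differed between genes. Without them r for *Per3* stayed at -0.88 (permutation p = 0.00242, adjusted 0.0218), the 1 pair of 9 that still passed. For *Dbp* it was -0.75 (permutation p = 0.0262, adjusted 0.118). *Per1* (-0.56), *Clock* (0.55), *Nr1d2* (-0.44) and *Per2* (-0.33) had adjusted permutation p-values of 0.357 to 0.534 over the 8 rats left, and *Cry2* turned to 0.10. Among the 5 females alone, given as a description, r with *Arntl* was -0.97 for *Per1*, -0.93 for *Per3*, 0.73 for *Clock* and -0.49 for *Dbp*, but -0.20 for *Nr1d2* and -0.17 for *Per2*, and 0.66 for *Cry2* against -0.96 among the 5 males. For *Nr1d2* and *Per2*, r was thus weak among females and strong among males (-0.91 and -0.96), a difference that was not tested. Females varied little in *Nr1d2* (1.14-fold), and leaving out males 1 and 4 narrows the range of *Arntl* by construction. With 1 rat left out at a time, r for *Nr1d2* stayed between -0.86 and -0.78. Leaving out 1 rat at a time, *Dbp* and *Per3* passed in 10 of 10 sets, *Per1* and *Per2* in all but the one without male 1 (r = -0.52 and -0.68), and *Nr1d2* in all but the one without male 2 (-0.79). *Clock* failed without male 1, male 2 or male 4 (r = 0.67, 0.69 and 0.63), and *Cry2* passed without female 2 (r = -0.86).

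**Figure D4:**
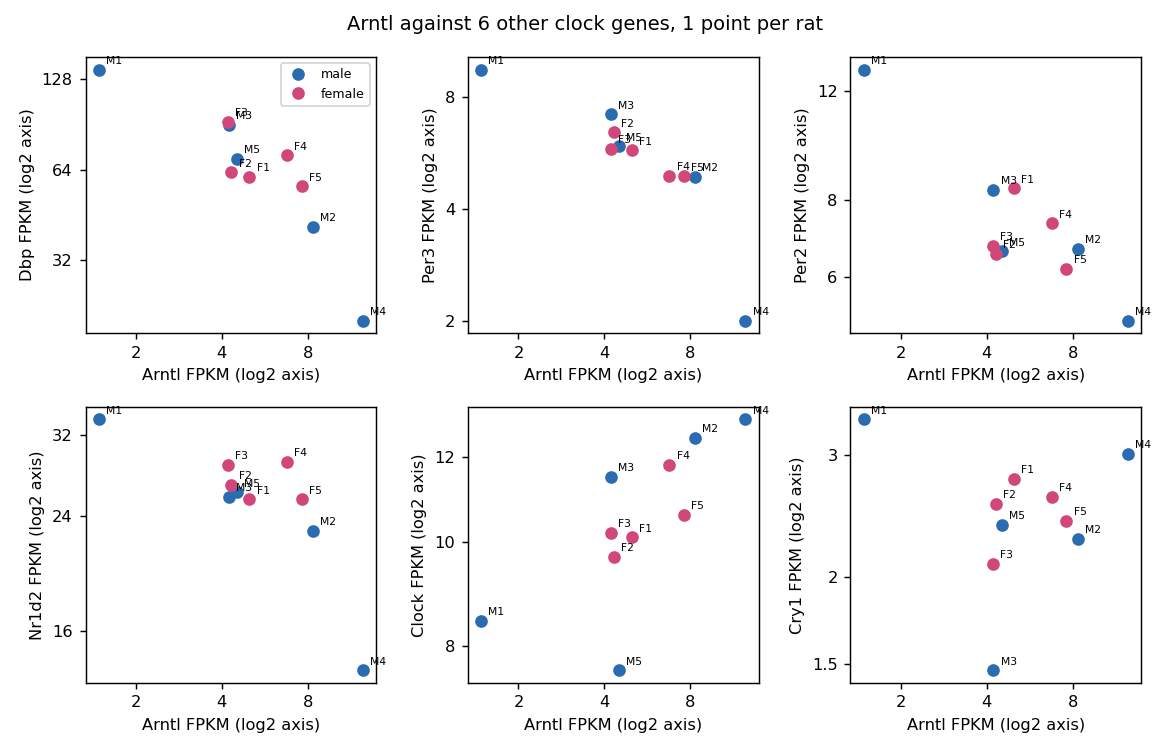
FPKM of *Dbp*, *Per3*, *Per2*, *Nr1d2*, *Clock* and *Cry1* (vertical axes) against FPKM of *Arntl* (horizontal axes), all on log2 axes, 1 point per rat (M, male in blue; F, female in pink, with the number of the rat). The 10 rats descend for *Per3* (r = -0.88) also between the extremes M1 and M4, whereas for *Per2* the 8 rats between them have r = -0.33 and for *Cry1* r is -0.10 over all 10.

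Library depth moved with *Arntl*. The log2 reads on genes correlated with *Arntl* at r = 0.73 (permutation p = 0.0108, adjusted 0.0432 over 4 relations, rho = 0.66, p = 0.0445). Without males 1 and 4 this r was 0.69 (permutation p = 0.0631). For *Dbp* r was -0.68 (permutation p = 0.0227, adjusted 0.0454, rho = -0.50, p = 0.146), and -0.40 without those 2 rats (permutation p = 0.338). The mitochondrial share of reads had r = -0.05 with *Arntl* and 0.01 with *Dbp* (permutation p = 0.857 and 0.957, rho = -0.02 and 0.04, p = 0.972 and 0.918). After a line on depth was taken out of every gene, r with *Arntl* was -0.86 for *Per2*, -0.79 for *Dbp*, -0.73 for *Per1* and -0.73 for *Per3* (permutation adjusted p = 0.0246, 0.0246, 0.0344 and 0.0344). It was -0.67 for *Nr1d2* (permutation adjusted p = 0.0689) and 0.38 for *Clock* (0.261), so 4 of the 9 pairs passed. No relation passed for the summed level of marker genes of 9 renal cell types or regions, taken with *Arntl* and with *Dbp* (0 of 18 permutation adjusted p-values at most 0.05). The closest was that of the medullary markers with *Arntl* (r = -0.68, permutation p = 0.0432, adjusted 0.457, rho = -0.59, p = 0.0809), with r = -0.42 without males 1 and 4. That sum does not speak for its members, since after the mean of each sex was taken out *Cldn4* had r = -0.71 with *Arntl* and *Slc39a8* 0.86. Their summed level ranged over 42.6 to 57.7 FPKM among males, and over 35.3 to 50.8 FPKM among females. A sum follows its most abundant gene, so the single markers were also read, with the mean of each sex taken out and as a description. Of 44 markers, 6 had an r of -0.7 or below with *Arntl*, or 13.6% against 2.01% of all genes, among them *Tek* (-0.85) and *Flt1* (-0.76) of endothelium, *Scnn1g* (-0.77) of the collecting duct and *Podxl* (-0.76) and *Nphs1* (-0.70) of podocytes. With *Dbp*, 1 marker was at 0.7 or above and 1 at -0.7 or below (2.27% each, against 1.59% and 2.15% of all genes). Their part in the relations of the clock genes was not tested.

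Ordered by *Arntl*, the rats ran from male 1 over female 3, male 3, female 2, male 5, female 1, female 4, female 5 and male 2 to male 4. Male 1 stood 1.74 below the mean of *Arntl* on the log2 scale and above the mean of *Dbp* (by 1.12), *Per1* (0.83), *Per2* (0.83), *Per3* (0.80), *Cry2* (0.56), *Cry1* (0.45), *Nr1d2* (0.42) and *Nr1d1* (0.19). In male 4 the reverse held for 7 of these 8 genes, and *Cry1* was again above its mean. Of the 10 further clock genes in the map of deviations, *Ciart* and *Tef* had both extremes in males 1 and 4, 6 had 1 extreme there, and *Rora* and *Nfil3* had none. *Hlf*, a relative of *Dbp* like *Tef*, had r = 0.16 with *Dbp* and was lowest in female 3. *Ciart*, which encodes a repressor of the BMAL1-CLOCK dimer, was at 2.54, 0.403, 1.32, 0.308 and 1.34 FPKM in males 1 to 5 and at 1.37, 2.04, 1.3, 0.944 and 0.723 FPKM in females 1 to 5. It was thus highest in male 1 and lowest in male 4. *Npas2*, a paralog of *Clock* that can replace it in the dimer, was at 1.21, 4.08, 2.11, 4.75 and 0.859 FPKM in the males and at 1.69, 2.71, 2.72, 3.02 and 2.96 FPKM in the females, highest in male 4 and lowest in male 5, like *Clock*. *Tef*, a relative of *Dbp* that binds the same D-box, was at 41.3, 21.5, 29.1, 16.7 and 26.7 FPKM in the males and at 26.6, 18.3, 27.6, 30.7 and 25.1 FPKM in the females, with male 1 highest and male 4 lowest as for *Dbp*.

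**Figure D5:**
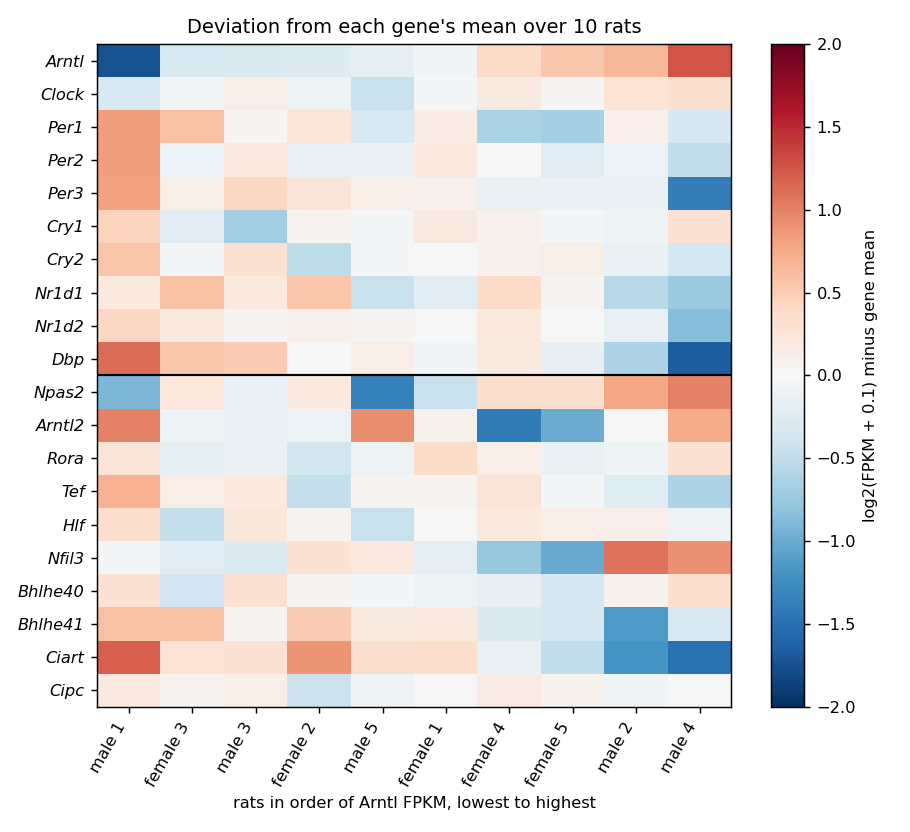
Deviation of log2(FPKM + 0.1) from the mean of each gene over 10 rats (colour, log2 units, red above and blue below the mean) for the 10 clock genes (above the line) and 10 further clock genes (below it), with rats in the order of their *Arntl* level. Male 1 at the left is blue for *Arntl* (-1.74) and red for *Dbp* (1.12), and male 4 at the right is the reverse.

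The likeness of all genes to *Arntl* and *Dbp* was ranked by Pearson r of log2 values over the 10 rats after the mean of each sex was taken out, among 13362 genes. It is given as a description, since 10 rats share their libraries across all genes. Of the genes outside the set, those most opposed to *Arntl* were *Ndn* (r = -0.96), *Ciart* (-0.95), *RGD1304884* (-0.92), *Galnt18* (-0.92) and *Rpl31l4* (-0.90). *Ndn* encodes necdin, of the MAGE family, and was at 2.47, 1.04, 1.52, 0.76 and 1.42 FPKM in males 1 to 5 and at 1.23, 1.56, 1.56, 0.849 and 0.905 FPKM in females 1 to 5. In the same order *Dbp* ranked 5, *Per3* 8, *Per2* 15 and *Nr1d2* 20, followed by *Per1* (188), *Nr1d1* (218) and *Cry2* (494). Most like *Arntl* were *Twf1* (0.93), *Bles03* (0.92), *Id4* (0.91), *Apoc3* (0.91) and *Tbc1d31* (0.91), and *Clock* ranked 211 from that end.

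For *Dbp* the order began with *Gpr146* (r = 0.97), *Nr1d2* (0.96), *Slc26a4* (0.95), *SNORD18* (0.95) and *Per3* (0.94), followed by *Rtn4rl1* (0.92) and *Sost* (0.92). *Slc26a4* encodes pendrin, the chloride-bicarbonate exchanger of intercalated cells, and was at 59.8, 39.0, 50.9, 22.6 and 37.5 FPKM in males 1 to 5 and at 52.9, 61.1, 74.7, 61.4 and 51.7 FPKM in females 1 to 5. Its lowest value, like that of *Dbp*, was in male 4. *Tef* ranked 20 and *Ciart* 21 in this order. The genes most opposed to *Dbp* were *Tmem243* (-0.96), *Pcsk6* (-0.94), *Dnaja4* (-0.93), *Tbx10* (-0.92) and *Mir207* (-0.92). *SNORD18* and *Mir207* are short RNAs near the counting floor. *SNORD18* was listed at 0 in male 4 and at 0.758 to 4.56 FPKM in the other rats, and *Mir207* at 0 in males 1, 3 and 5. On genes so short such values are a few reads, so their r says little.

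The genes around the core loop were read from 11 lists of 69 symbols, of which 65 matched the table and 64 rows were tested. Of these, 3 were higher and 0 lower in females at a limma adjusted p of at most 0.05, or 4.69% against 2.4% of all genes, and 22 had an unadjusted p under 0.05, or 34.4% against 15.7%. All 3 were among the 10 tubule transport genes known for a daily rhythm. *Slc5a1*, the sodium-glucose cotransporter SGLT1, averaged 12.9 ± 1.79 FPKM in males against 21.9 ± 5.68 FPKM in females (SD, n = 5 each; log2 fold change 0.73 with an SE of 0.16, limma adjusted p = 0.0353). *Wnk1*, a kinase that regulates sodium-chloride cotransport, averaged 49.3 ± 5.47 against 72.2 ± 11.8 FPKM (log2 fold change 0.54 with an SE of 0.12, limma adjusted p = 0.0422). *Avpr2*, the vasopressin V2 receptor of the collecting duct, averaged 13.6 ± 1.75 against 18.4 ± 1.21 FPKM (log2 fold change 0.44 with an SE of 0.10, limma adjusted p = 0.0469). These 3 calls sat close to the threshold. In the same order they were lost with eBayes without trend (limma adjusted p = 0.0624, 0.0752 and 0.0787). They were also lost with a replicate block (limma adjusted p = 0.103, 0.17 and 0.155). Leaving out 1 rat kept *Slc5a1* without male 4, female 2, female 3 or female 5, *Wnk1* without male 1, female 1 or female 5, and *Avpr2* without male 1 or female 2, and each was lost without any of the other rats.

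None of the other 10 lists had a gene past the threshold, and the gene nearest to it is given for each. *Bhlhe40* (DEC1), a repressor that competes for E-boxes, averaged 46.9 ± 5.34 FPKM in males against 35.9 ± 4.4 FPKM in females (SD, n = 5 each; limma adjusted p = 0.0961). Among the paralogs of the activators *Arntl2* had an adjusted limma p of 0.243, and among the ROR receptors *Rora* had 0.857. *Nfil3* (E4BP4), which represses through the D-box that DBP activates, was at 6.04 ± 2.55 and 3.46 ± 1.25 FPKM (limma adjusted p = 0.256). For the kinases and ubiquitin ligases that set clock protein turnover the nearest was *Csnk1e* (0.631), for the partners of clock proteins *Tipin* (0.12) and for the known clock outputs *Nampt* (0.20), the enzyme of NAD salvage.

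No gene of the lists for signals that can reset the clock passed the threshold either. Of the glucocorticoid-responsive genes *Dusp1* came nearest, with 74.7 ± 27.1 FPKM in males against 37.0 ± 7.9 FPKM in females (SD, n = 5 each; limma adjusted p = 0.0885). Of the temperature-responsive genes this was *Hsph1*, at 34.4 ± 4.0 and 47.2 ± 6.3 FPKM (limma adjusted p = 0.0643). The immediate early genes, which respond quickly when cells are stimulated, had a median log2 fold change of -0.78, and 5 of 7 had an unadjusted limma p under 0.05, where 15.7% of all genes did. The nearest to the threshold was *Jun*, at 85.1 ± 25.8 and 52.1 ± 14.8 FPKM (limma adjusted p = 0.171). Over the 10 rats, with the mean of each sex taken out and as a description, the 6 immediate early genes at 1 FPKM or more had an r of -0.19 to 0.16 with *Arntl* and of -0.40 to -0.14 with *Dbp*. The 9 glucocorticoid-responsive rows ran from -0.70 (*Fkbp5*) to 0.21 (*Dusp1*) with *Arntl* and from -0.46 (*Dusp1*) to 0.65 (*Fkbp5*) with *Dbp*, and the 6 temperature-responsive genes from -0.64 (*Hspa1b*) to 0.45 (*Hsph1*) with *Arntl*.

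Some marker genes of renal cell types also differed between the sexes. Of 46 tested markers, 2 were higher and 2 lower in females at a limma adjusted p of at most 0.05, or 8.7% against 2.4% of all genes, and 17 had an unadjusted p under 0.05, or 37.0% against 15.7%. Those past the adjusted threshold were *Cubn* of the proximal tubule (50.0 ± 12.2 and 81.0 ± 11.9 FPKM) and *Avpr2* on the one side, and *Ptger3* of the thick ascending limb (34.8 ± 4.43 and 22.9 ± 4.12 FPKM) and *Col3a1* of fibroblasts (81.8 ± 13.1 and 39.5 ± 14.9 FPKM) on the other. The other collecting duct markers had the same sign as *Avpr2* (log2 fold changes of 0.02 to 0.57). Those of fibroblasts and smooth muscle had the same sign as *Col3a1*, apart from *Myh11* (0.01). For *Cubn* and *Ptger3*, some markers of the same segment had the opposite sign. *Aqp1* and *Slc22a6* of the proximal tubule had log2 fold changes of -0.56 and -0.53 (limma adjusted p = 0.233 and 0.16), against 0.72 for *Cubn*. *Slc5a2* (0.34) and *Lrp2* (0.2) went the way of *Cubn*, and *Slc34a1* (-0.03) and *Slc13a3* (-0.1) were slightly negative. *Slc12a1* and *Umod* of the thick ascending limb both had 0.35 (limma adjusted p = 0.243 and 0.419), against -0.62 for *Ptger3*. The collecting duct markers summed to 216 to 320 FPKM among males against 261 to 372 among females, the fibroblast and smooth muscle markers to 260 to 345 and 86.1 to 283 FPKM, and the immune markers to 518 to 1080 and 316 to 712 FPKM. The upper end of the last 2 in females was female 2, without which they reached 206 and 568 FPKM. The distal convoluted tubule markers summed to 83.3 to 148 and 126 to 187 FPKM. The median log2 fold change was -0.69 for the fibroblast and smooth muscle markers, with 4 of 6 at an unadjusted limma p under 0.05, 0.41 for the collecting duct markers, with 4 of 6, and 0.42 for the distal convoluted tubule markers, with 2 of 2. *Avpr2* is on the list of collecting duct markers as well as on that of the transport genes. The 4 calls sat close to the threshold (limma adjusted p = 0.0435 to 0.0477), and none was kept with a replicate block. Their part in the sex differences of the transport genes was not tested.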

How the data were processed

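The authors' provider sequenced RNA of frozen renal cortex, 1 library for each of 5 male and 5 female PCK rats. Groups were taken from the sample labels. Reads were mapped with HISAT2 to Ensembl Rnor_6.0, and the authors deposited FPKM values in 1 table for all rats. The submitters' processing notes also name fastp, StringTie 1.3.3b, HISAT2 2.0.5 and featureCounts 1.5.0-p3. No per-sample column was left out, and the table's gene annotation columns gave symbols and positions. Dividing FPKM by the value of 1 read gave whole reads for 100% of values (tolerance 0.01), from which depth was taken. The median-ratio factor was 1.01 in all libraries, so the FPKM were not rescaled. Median-ratio scaling as an alternative therefore changed almost nothing by construction.

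limma 3.58.1 (lmFit and eBayes with trend, R 4.3.3) was run on log2(FPKM + 0.1) for genes averaging 0.1 FPKM or more, with sex as the only term and Benjamini-Hochberg adjustment over all genes. Fold changes are on the log2(FPKM + 0.1) scale, which understates changes of low genes. The mean FPKM of each gene was also compared by an exact permutation test, two-sided, over 252 arrangements. Correlations used 100000 permutations. Python 3.11.15, numpy 2.4.6, pandas 2.3.3, scipy 1.17.1 and matplotlib 3.10.9 were used. The procedures were tested on simulated data.

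The members, lists and tests were chosen with earlier results of these data known. Genes named are the 10 members, list genes with an adjusted p of at most 0.05 or else the nearest in each list, and the 5 genes with the highest and the 5 with the lowest r to *Arntl* and to *Dbp*. *Npas2*, *Tef*, *Hlf*, *Usp2*, *Fkbp5*, *Hspa1b* and the markers were named after their values were seen, and the marker sums were correlated after the other results were known. *Fbxl21*, *Rack1*, *Noct* and *Ier2* were not matched by symbol and were not analysed here. Alternatives were another pseudocount (1 or 0.01), the filter raised to 1 FPKM or left out, other scalings, eBayes without trend, a replicate block, limma-voom on recovered reads and leaving out each rat. Leaving out males 1 and 4, taking out depth, the comparison of spread between the sexes and the alternatives for the marker calls were added after seeing the data. The closest libraries (males 1 and 3) had a chi-square per degree of freedom of 9.71 between their reads, and all 10 counted as separate samples.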

Additional observations from a re-analysis of the deposited data

Results flagged for a closer look

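In 40 groups of 5 rats (20 genes, males and females apart), 5 had a rat at one end that stood far from its neighbour. Far means a gap of more than 0.71 of the range of the group. This count cannot be set against chance. The same rats gave all values, and some of the 20 genes were named after their values were seen. *Slc5a1*, *Wnk1* and *Avpr2* were among them because of their difference between the sexes. Male 1 was the highest male for *Per1* at 16.9 FPKM, with the next male at 10.1, and for *Usp2*, a deubiquitinase of clock proteins, at 14.0 FPKM, with the next at 5.95. Female 2 was the lowest female for *Cry2* at 6.62 FPKM, with the next at 9.33. Female 1 was the lowest female for *Npas2* at 1.69 FPKM, with the next at 2.71. Female 5 was the highest female for *Slc5a1* at 31.9 FPKM, with the next at 21.4.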

How the results depend on the processing

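None of the 10 clock genes passed the threshold between the sexes in any of 20 alternatives (lowest adjusted p 0.1588, *Nr1d1*). The count of wider clock genes higher in females (3) was 1 with no filter, 0 with eBayes without trend, 0 with a replicate block and 1 without males 1 and 4, and 0 to 4 leaving out 1 rat. That of genes lower in females (0) was 0 to 2. Replicate numbers do not pair the rats (correlation of same-numbered males and females -0.16 to 0.16), so the block, which took the calls over all genes from 424 to 231, compares only a shared number. It also took the marker calls from 2 higher and 2 lower to 0 and 0, and changed no call of the 10 clock genes. Leaving out 1 rat, 0 to 2 markers were higher and 0 to 4 lower (4 without female 2). Clock genes at an exact p of at most 0.05 (0) were 0 to 1, correlations with *Arntl* past the threshold (6) 3 to 7, and genes among the widest 10% (3) 1 to 4, leaving out 1 rat. Without males 1 and 4 the last 2 counts were 1 and 0. Signs turned for log2 fold changes whose 95% interval holds 0. Leaving out 1 rat, these ran from -0.30 to 0.45 (*Arntl*), -0.10 to 0.09 (*Clock*), -0.29 to 0.06 (*Per1*), -0.24 to 0.09 (*Per2*), -0.26 to 0.28 (*Per3*), -0.13 to 0.16 (*Cry1*) and -0.19 to 0.50 (*Dbp*), and *Per3* was at -0.10 without males 1 and 4. The correlation of *Arntl* with *Cry1* ran from -0.35 to 0.52 and was 0.32 without males 1 and 4, and that with *Cry2* was then 0.10. The cause was not tested. With 5 rats per sex, the 95% intervals of *Arntl* and *Dbp* reach to 2.20-fold and 2.19-fold.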
